A study of Mus musculus with 4 samples.

Results

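The mitosis and kinetochore genes described here are 43 of the 31053 genes counted, a list of genes that work in cell division, read in single thymocytes of WT, preleukemic and leukemic *Tal1/Lmo2* mice. The rule names them by function and uses no level, although the list was drawn up with earlier results of these data known, and all 43 were found in the 4 matrices. By role they were grouped as 7 cyclins and kinases, 4 genes of the spindle checkpoint and the anaphase-promoting complex (APC/C), 4 of the chromosomal passenger complex, 8 of the centromere and kinetochore, 8 kinesins, 6 of spindle assembly and the midzone, 3 of chromosome structure and cohesion, and 3 of cytokinesis.

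A dividing cell makes these transcripts late. They are low in G1, rise through S phase and G2, and are destroyed with many of their proteins as the cell leaves mitosis. The cyclin-dependent kinase Cdk1 with A- and B-type cyclins starts mitosis, the kinetochore ties each centromere to spindle microtubules, the spindle checkpoint (Bub1, Bub1b) holds APC/C with its activator Cdc20 until each kinetochore is attached, and kinesins and the midzone then part the chromosomes and the cell. In the thymus, division is concentrated in cells that have just passed beta selection, that is the late CD4-CD8- stage, the immature CD8 single-positive stage and the first double-positive blasts, whereas small resting double-positive cells and mature cells seldom divide.

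The study asked how thymocyte progenitors cycle before and after leukemia arises in this line. The labels give 1 library of WT FVB/N thymus at 6 weeks, 1 of preleukemic Tal1/Lmo2 FVB/N thymus at 6 weeks and 2 of leukemic Tal1/Lmo2 FVB/N thymus at 3 months (T-ALL#1 and T-ALL#2, T-cell acute lymphoblastic leukemia). The transgenes are driven by the proximal *Lck* promoter, which is active in developing T cells, and all cells were viable singlets sorted from thymus after red cells were lysed. Age and leukemia cannot be told apart here, and neither can software: the T-ALL#2 matrix came from Cell Ranger 4 with every barcode kept, whereas the other 3 came from version 3.0.2 with cells already called.

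Cells were kept with more than 500 genes and under 10% mitochondrial UMIs (unique molecular identifiers, 1 per captured transcript), and in T-ALL#2 also with at least 3416 UMIs. This left 1975 to 5773 cells a library with 24042062 to 70745712 UMIs, and a median depth of 3800.5 UMIs a cell in WT, 4888 in preleukemic thymus, 8742 for T-ALL#1 and 17581 for T-ALL#2. *Tal1* had 0 UMIs in WT, which allows up to 3, and 4830 to 16732 in each transgenic library. *Lmo2*, the second transgene, had 22 UMIs in WT, 183 in preleukemic thymus, 26 for T-ALL#1 and 10 for T-ALL#2, so that its counts do not separate the transgenic leukemias from WT. The label of the WT and of the preleukemic mouse is male, but their libraries held *Xist* at 1380 and 1869 CPM (counts per 1000000 UMIs) and 1 and 5 UMIs of 4 Y-linked genes, so both go against that label. T-ALL#1 (*Xist* 1932 CPM, 1 Y-linked UMI) and T-ALL#2 (0.0828 CPM, 4413 Y-linked UMIs) match theirs, so T-ALL#2 alone reads as male and this cannot be told apart from any other difference of that library. Any 2 libraries shared at most 9 barcodes of kept cells. All 7 thymocyte markers read, among them *Cd3e* and *Lck*, had UMIs in every library. Markers of erythroid cells summed to 83.4 CPM in WT and to at most 0.221 CPM elsewhere, and those of myeloid cells to 66.5 CPM in WT and 5.13 to 7.84 CPM elsewhere. Their part in the levels below was not tested, but in the member-rich WT cells defined below the summed erythroid markers were at 0.497 CPM and the myeloid markers at 0.331 CPM.

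The promoters of the members share sequence that the list was not chosen on. In the RefSeq table of mouse build GRCm38.p6, 34 of the 43 members had a promoter of 300 bases (250 before the start and 50 after it), and *Ccna2*, *Aurkb*, *Incenp*, *Kif20a*, *Spc24*, *Tpx2*, *Pbk*, *Dlgap5* and *Esco2* had no entry. The cell cycle genes homology region, the site known to be read by the MuvB complexes that hold mitotic genes off in resting cells and turn them on in G2, was searched as TTTGAA or TTCGAA on both strands. It was found for 29 of 34 members (85.3%), for 35 of 58 genes of a second list of mitotic genes (60.3%), for 7 of 32 DNA replication genes (21.9%) and for 21.7% of all 27025 genes. Within 50 bases of the start it was found for 79.4% of the members, 48.3% of the other mitotic genes, 9.38% of the replication genes and 6.12% of all genes. CCAAT, the box of the factor NF-Y, was found on either strand for 73.5% of the members, 72.4% of the other mitotic genes and 71.9% of the replication genes, against 41.1% of all genes (the motifs can share at most 1 base at their ends). The shares with a CCAAT box were thus alike in the 3 lists, and the shares with a homology region were not. A match is a description of the letters and not a measured site.

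**Figure D1:**
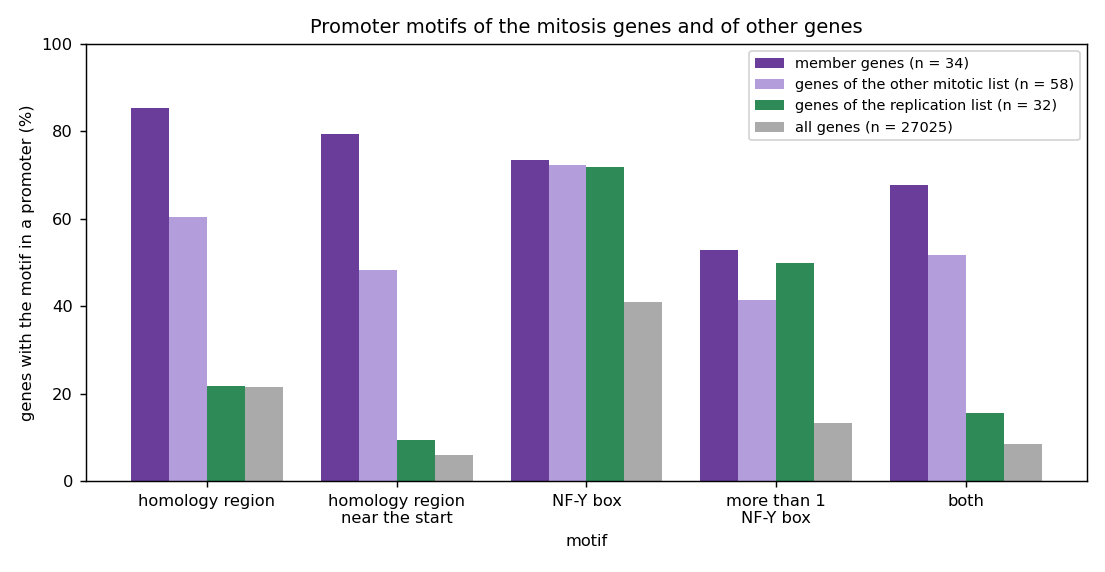
Share of genes (%) with a motif in a RefSeq promoter of 300 bases, for the 34 members with a promoter, the other mitotic genes, the replication genes and all genes. The homology region is near 80% of members within 50 bases of the start and under 10% of replication genes and of all genes, while the NF-Y box is above 70% in all 3 lists.

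The promoters of 4 members with both motifs before the start and of 1 member with neither are printed to show the arrangement, as the 150 bases before the RefSeq start, 5′ to 3′ on the strand of the gene. Capitals of 6 letters mark a homology region and capitals of 5 letters mark a CCAAT box, each read on either strand. *Top2a* is at chr11:99024190-99024339 on the minus strand, *Cdk1* at chr10:69352913-69353062 on the minus strand, *Cdc20* at chr4:118437344-118437493 on the minus strand, *Ckap2l* at chr2:129297213-129297362 on the minus strand and *Birc5* at chr11:117849087-117849236 on the plus strand.
Top2a: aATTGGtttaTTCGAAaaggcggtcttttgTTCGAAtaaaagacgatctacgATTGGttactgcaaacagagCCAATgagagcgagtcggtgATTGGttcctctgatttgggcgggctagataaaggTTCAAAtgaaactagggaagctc
Cdk1: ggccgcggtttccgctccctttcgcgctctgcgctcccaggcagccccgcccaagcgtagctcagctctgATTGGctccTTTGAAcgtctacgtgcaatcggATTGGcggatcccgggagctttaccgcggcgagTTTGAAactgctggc
Cdc20: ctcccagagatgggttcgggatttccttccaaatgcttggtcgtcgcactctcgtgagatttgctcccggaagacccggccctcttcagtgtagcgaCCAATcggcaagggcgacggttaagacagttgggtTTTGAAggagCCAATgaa
Ckap2l: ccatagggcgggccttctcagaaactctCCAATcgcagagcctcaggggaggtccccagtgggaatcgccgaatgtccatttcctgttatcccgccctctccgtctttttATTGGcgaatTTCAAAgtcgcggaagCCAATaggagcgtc
Birc5: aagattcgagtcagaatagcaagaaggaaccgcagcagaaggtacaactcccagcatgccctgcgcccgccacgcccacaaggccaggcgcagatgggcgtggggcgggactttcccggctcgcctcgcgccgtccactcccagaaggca

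*Top2a*, the member with most UMIs in every library, held 3 homology regions and 4 CCAAT boxes in these 150 bases. *Cdk1* held 2 of each, *Cdc20* 1 and 2, and *Ckap2l* 1 and 3, whereas *Birc5* held neither letter string in the whole 300 bases and was still among the members called lower in preleukemic than in WT and higher in T-ALL#1 than in preleukemic thymus.

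Summed over the 43 members, the level per UMI of a library was lower in preleukemic than in WT thymus. On that scale it was near the WT level in T-ALL#1, but not in T-ALL#2. The members together had 3970 CPM in WT (exact Poisson 95% interval 3945 to 3996, counting error only), 2100 CPM in preleukemic thymus (2086 to 2114), 4056 CPM for T-ALL#1 (4042 to 4071) and 2036 CPM for T-ALL#2 (2021 to 2051). The preleukemic level was thus lower than WT by a log2 ratio of -0.92. The leukemias stood on either side of it, at log2 ratios of 0.95 in T-ALL#1 and -0.04 in T-ALL#2 to the preleukemic library, a mean of 0.45 ± 0.70 (SD, n = 2). With every cell given equal weight they were 1.25 and 0.58, a mean of 0.91, so the T-ALL#2 value changed sign. As WT and preleukemic thymus are 1 library each, no test between groups could be made, and the intervals say nothing of the spread between mice. In summed counts of a library, fewer dividing cells and fewer transcripts per dividing cell cannot be told apart. The counts per cell below describe both but do not separate them, because cells are chosen there by the members' own UMIs.

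The values of both leukemias depend on the scale. The median log2 ratio of all genes of at least 10 CPM was -0.48 in T-ALL#2 against preleukemic, -0.15 in T-ALL#1 against preleukemic and -0.03 in preleukemic against WT. Ribosomal protein genes took 36.0% of UMIs in T-ALL#2 against 20.8% in WT, 23.8% in preleukemic thymus and 27.2% in T-ALL#1. With TMM factors, which set the bulk of genes level, the module was at a log2 ratio of 0.46 in T-ALL#2 and 1.21 in T-ALL#1 to the preleukemic library and at -0.87 in preleukemic to WT. The T-ALL#2 level was therefore near the preleukemic level per UMI and above it relative to most genes, and below WT on both scales, with a log2 ratio of -0.96 per UMI and -0.41 with TMM factors. T-ALL#1 was at a log2 ratio to WT of 0.03 per UMI and 0.34 with TMM factors. With cells weighted equally T-ALL#1 was at 2413 CPM against 1696.5 in WT, and without the deepest 5% of cells at 3573 against 2703. T-ALL#1 was thus near WT per UMI and above it in these other readings.

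**Figure D2:**
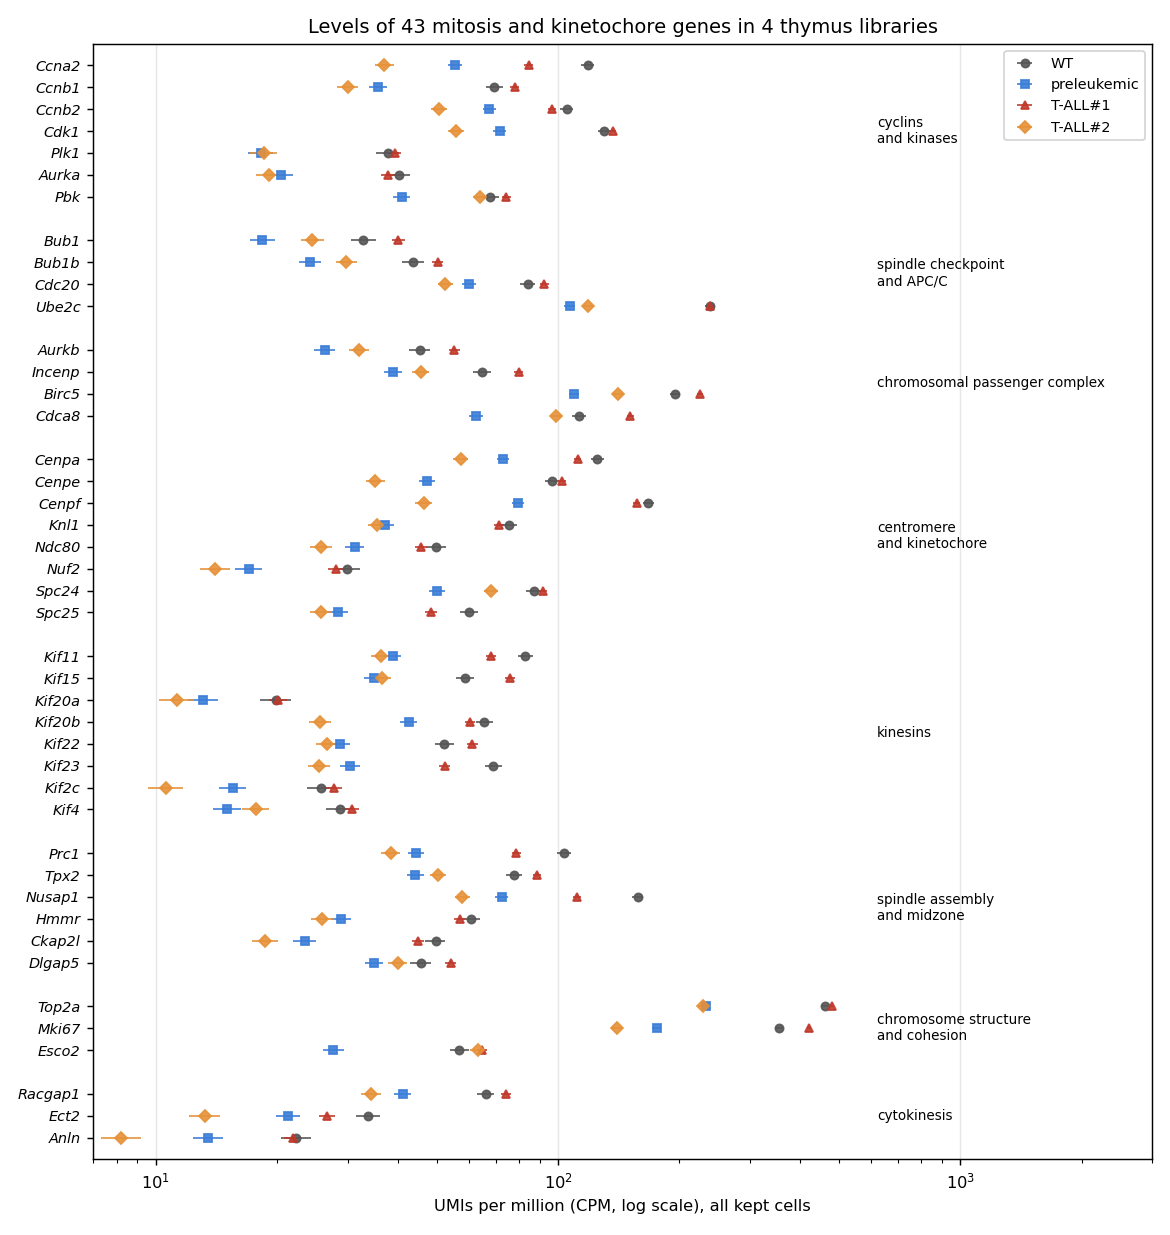
Level of each of the 43 members in CPM (log axis) in the 4 libraries, grouped by role, with exact Poisson 95% intervals. WT and T-ALL#1 points lie to the right of the preleukemic point for each member, and T-ALL#2 points lie left of the preleukemic point for 28 of 43, with *Pbk*, *Cdca8* and *Esco2* farthest to its right.

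Gene by gene, a member was called higher or lower where its CPM differed at least 1.5-fold and the Poisson intervals did not overlap. In preleukemic against WT, 0 of 43 members were called higher and 41 lower, and all 43 had a log2 ratio below 0, with a median of -0.85 and a range from -1.22 (*Prc1*) to -0.39 (*Dlgap5*). Of all 8417 genes with at least 10 CPM in 1 of these libraries, 8.4% were called higher and 10.1% lower. The 2 members not called were *Cdc20* and *Dlgap5*. In T-ALL#1 against preleukemic, 39 members were called higher and 0 lower (median 0.93, background 11.6% higher and 24.6% lower), the others being *Ccnb2*, *Ndc80*, *Kif20b* and *Ect2*. In T-ALL#2 against preleukemic, 3 were called higher (*Esco2*, *Pbk* and *Cdca8*) and 4 lower (*Cenpf*, *Kif20b*, *Ect2* and *Anln*), with a median of -0.16 (background 9.09% higher and 45.2% lower). These comparisons share the preleukemic library. With TMM factors 13 members were higher and 0 lower in T-ALL#2, 42 and 0 in T-ALL#1, and 39 were lower in preleukemic against WT. On that scale 24.4% of all genes were higher and 23.9% lower in T-ALL#2, and 22.0% and 15.4% in T-ALL#1. In preleukemic against WT 9.11% were lower. The 13 of 43 members in T-ALL#2 were thus not far above the share of all genes. The members higher in both leukemias than in preleukemic thymus were the same 3 of 43, beside 5.68% of all genes. They were 13 with TMM factors, for which the share of all genes higher in both was not computed.

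Against WT, T-ALL#1 had 0 members called in either direction, where 12.1% of all genes were higher and 27.2% lower. With TMM factors 5 members were higher and 0 lower, where 24.7% of all genes were higher and 15.5% lower. T-ALL#2 had 0 higher and 33 lower than WT, where 11% of all genes were higher and 47.6% lower, and with TMM factors 1 was higher and 17 lower. Between the leukemias, 39 of 43 members were lower in T-ALL#2 than in T-ALL#1, beside 24.9% of all genes, and *Pbk*, *Spc24*, *Dlgap5* and *Esco2* were not called.

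The cyclins and kinases summed to 569 CPM in WT, 310 CPM in preleukemic thymus, 548 CPM for T-ALL#1 and 275 CPM for T-ALL#2. *Cdk1*, the kinase that starts mitosis, was at 130 CPM in WT, 71.6 in preleukemic thymus, 137 for T-ALL#1 and 55.8 for T-ALL#2. *Ccna2*, cyclin A2, which acts from S phase on, was at 119, 55.5, 84.5 and 37.0 CPM in the same order, and *Ccnb1*, cyclin B1, at 69.5, 35.8, 78.1 and 30.1 CPM. So *Ccna2* stayed below WT in T-ALL#1 while *Ccnb1* passed it, although neither difference reached the limit of the call. *Ccnb2*, the second B-type cyclin, differed least of this group between preleukemic and WT (105, 67.4, 96.7 and 50.6 CPM). *Pbk*, a mitotic kinase, was at 67.9 CPM in WT, 40.9 in preleukemic thymus, 74.4 for T-ALL#1 and 64.1 for T-ALL#2, so both leukemias were above preleukemic. It took 3.15% of member UMIs in T-ALL#2 and 1.71% to 1.95% in the other libraries. *Plk1* and *Aurka*, kinases of centrosome maturation and spindle building, were at 18.2 to 20.5 CPM in preleukemic thymus and T-ALL#2 and at 37.7 to 40.3 CPM in WT and T-ALL#1.

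In the spindle checkpoint and APC/C, *Ube2c*, the ubiquitin-conjugating enzyme of APC/C, was at 238 CPM in WT, 107 in preleukemic thymus, 239 for T-ALL#1 and 119 for T-ALL#2. The same libraries held *Cdc20*, the APC/C activator, at 84.1, 59.9, 92.5 and 52.5 CPM, the smallest difference between preleukemic and WT in this group. *Bub1* and *Bub1b*, the checkpoint kinases, were lower in preleukemic than in WT by log2 ratios of -0.83 and -0.85 and were called higher in T-ALL#1, at 1.12 and 1.05. In T-ALL#2 they were at 24.5 and 29.7 CPM, between the preleukemic values of 18.4 and 24.3 CPM and the WT values of 32.9 and 43.6 CPM.

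The chromosomal passenger complex, in which Aurkb is the kinase, Incenp its scaffold, and Birc5 (survivin) and Cdca8 (borealin) its centromere-targeting subunits, was the group with the highest level in the leukemias relative to preleukemic thymus after chromosome structure in T-ALL#1, and the highest of all groups in T-ALL#2. *Birc5* was at 195 CPM in WT, 110 in preleukemic thymus, 225 for T-ALL#1 and 141 for T-ALL#2, and *Cdca8* at 113, 62.6, 151 and 99.1 CPM. *Cdca8* thus had the largest log2 ratio of T-ALL#1 to preleukemic of all members, 1.27. The 4 subunits together took 10.5% of member UMIs in WT, 11.3% in preleukemic thymus, 12.6% for T-ALL#1 and 15.6% for T-ALL#2. The exact 95% intervals of these 4 shares did not overlap, for counting error only. Relative to preleukemic, the summed subunits were 2.16-fold for T-ALL#1 and 1.34-fold for T-ALL#2, where the other groups spanned 0.735-fold to 1.08-fold in T-ALL#2.

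At the centromere and kinetochore, all 8 members were lower in preleukemic than in WT. *Cenpf*, a large protein of the outer kinetochore made in G2, was at 168 CPM in WT, 79.6 in preleukemic thymus, 157 for T-ALL#1 and 46.4 for T-ALL#2, the lowest T-ALL#2 value relative to preleukemic of any member. It took 2.28% of member UMIs in T-ALL#2 and 3.79% to 4.22% elsewhere. *Cenpe*, the kinetochore motor, was similar, at 96.8, 47.3, 102 and 35.2 CPM. *Cenpa*, the centromeric histone H3 variant, was at 125, 73.0, 112 and 57.4 CPM. The microtubule-binding Ndc80 complex has 4 members here. *Spc24* stood at 87.0 CPM in WT, 50.04 in preleukemic thymus, 91.6 for T-ALL#1 and 68.0 for T-ALL#2, and *Spc25*, its partner, at 60.1, 28.4, 48.5 and 25.8 CPM. In T-ALL#2 against preleukemic their log2 ratios were 0.44 and -0.14, and neither reached the call. *Ndc80* and *Nuf2*, the other pair, were at log2 ratios of -0.28 and -0.28 in T-ALL#2 to preleukemic, and *Knl1*, the scaffold that the checkpoint kinases dock on, at -0.06.

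All 8 kinesins were lower in preleukemic than in WT, from *Kif20a* (-0.60 on the log2 scale) to *Kif23* (-1.18). *Kif11*, the motor that pushes spindle poles apart, was at 82.9 CPM in WT, 38.8 in preleukemic thymus, 68.0 for T-ALL#1 and 36.2 for T-ALL#2. *Kif15*, which can share that task, was at 58.7, 34.8, 76.0 and 36.4 CPM, so that of these 2 only *Kif15* was above WT in T-ALL#1, without reaching the call. *Kif23*, the midzone motor of cytokinesis, was at 69.1, 30.4, 52.3 and 25.5 CPM. *Kif20b* differed least of the kinesins between T-ALL#1 and preleukemic thymus (log2 ratio 0.51) and was called lower in T-ALL#2 (-0.73).

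Of spindle assembly and midzone genes, *Nusap1*, a microtubule-bundling protein, was at 158 CPM in WT, 72.5 in preleukemic thymus, 112 for T-ALL#1 and 57.9 for T-ALL#2. *Prc1*, the bundler of midzone microtubules, was at 104, 44.5, 78.7 and 38.4 CPM. Both stayed below WT in T-ALL#1, at log2 ratios of -0.50 for *Nusap1* and -0.40 for *Prc1*. *Tpx2*, which activates Aurka on the spindle, was at 77.9, 44.2, 88.7 and 50.4 CPM. *Dlgap5*, a spindle stabilizing protein, was at 45.6, 34.9, 54.2 and 39.9 CPM and was the member nearest to WT in the preleukemic library.

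In chromosome structure and cohesion, *Top2a*, the topoisomerase that untangles sister DNA, was at 461 CPM in WT, 233 in preleukemic thymus, 478 for T-ALL#1 and 229 for T-ALL#2. *Mki67*, which coats mitotic chromosomes and is the usual marker of proliferation, was at 354, 176, 421 and 140 CPM. *Esco2*, the acetyltransferase that locks cohesin on DNA during S phase, was at 56.9 CPM in WT, 27.7 in preleukemic thymus, 64.8 for T-ALL#1 and 63.1 for T-ALL#2. It was the member with the largest log2 ratio of T-ALL#2 to preleukemic (1.19), and the only one above WT in T-ALL#2 per UMI (0.15), which did not reach the call. *Top2a* kept a near constant share of member UMIs, from 11.1% to 11.8%, whereas *Mki67* took 10.4% for T-ALL#1 and 6.87% for T-ALL#2, and *Esco2* 3.10% in T-ALL#2 against 1.32% to 1.60% elsewhere.

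The cytokinesis genes were each lowest in T-ALL#2. *Racgap1*, the partner of Kif23 at the midzone, was at 66.1 CPM in WT, 41.1 in preleukemic thymus, 74.2 for T-ALL#1 and 34.4 for T-ALL#2. *Anln*, the anillin scaffold of the cleavage furrow, was at 22.4, 13.5, 21.9 and 8.22 CPM, and *Ect2*, the exchange factor that switches on RhoA there, at 33.8, 21.3, 26.7 and 13.2 CPM. *Ect2* differed least of all members between T-ALL#1 and preleukemic thymus, at a log2 ratio of 0.32.

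Member UMIs were held by a minority of cells. To compare cells of unequal depth, 2000 UMIs were drawn from each, which left out 991 shallower WT cells (23.5%), 350 preleukemic cells (6.28%), 94 T-ALL#1 cells (1.63%) and 0 T-ALL#2 cells. At this depth no member UMI was found in 52.1% of cells from WT, 51.6% from preleukemic thymus, 35.4% from T-ALL#1 and 37.8% from T-ALL#2. Cells with at least 10 member UMIs of 2000, called member-rich cells here and taken as a range of a score and not as a cell type, were 360 of 3229 in WT (11.1%, exact Clopper-Pearson 95% interval 10.1% to 12.3%), 300 of 5226 in preleukemic thymus (5.74%, 5.13% to 6.41%), 975 of 5679 in T-ALL#1 (17.2%, 16.2% to 18.2%) and 197 of 1975 in T-ALL#2 (9.97%, 8.69% to 11.4%). The share was thus lowest in preleukemic thymus and highest in T-ALL#1, while the WT and T-ALL#2 intervals overlapped. Without thinning, at 50 member UMIs per 10000, the shares were 8.51%, 5.06%, 16.9% and 8.25%.

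The limit cuts a continuous range. Within 2 UMIs of it lay 48 WT cells, 98 preleukemic cells, 276 T-ALL#1 cells and 122 T-ALL#2 cells. These cells were 1.49% of WT and 6.18% of T-ALL#2 cells, so the T-ALL#2 share moves most with the limit. At a limit of 5 UMIs the shares were 13.8%, 9.20%, 25.1% and 21.6%, and at a limit of 20 they were 7.84%, 2.81%, 8.35% and 1.97%, in the order WT, preleukemic, T-ALL#1 and T-ALL#2. T-ALL#2 was therefore above WT at the low limit and below the preleukemic library at the high one.

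**Figure D3:**
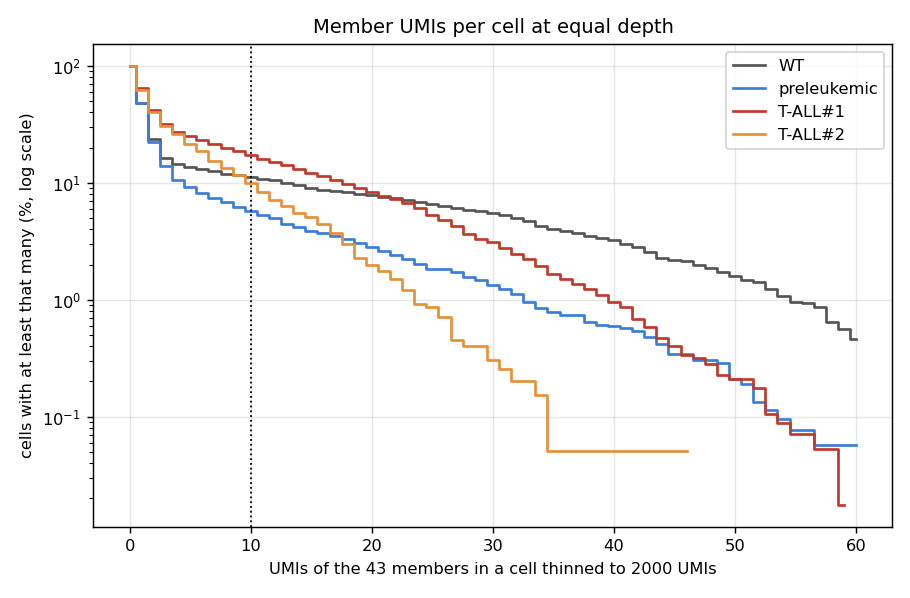
Share of cells (%, log axis) with at least a given number of member UMIs after thinning to 2000 UMIs, in the 4 libraries. The dotted line is the limit of 10. WT keeps the most cells beyond 20 to 25 UMIs, T-ALL#1 the most between 3 and 20, and the T-ALL#2 curve falls fastest.

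Member-rich cells also differed in how much of the module each held. Their median was 29 member UMIs of 2000 in WT, 19 in preleukemic thymus, 19 for T-ALL#1 and 15 for T-ALL#2. They held 84.0% of the thinned member UMIs in WT, 61.4% in preleukemic thymus, 75.4% for T-ALL#1 and 51.2% for T-ALL#2, and the rest was spread over cells with fewer. WT had a sharp division between cells with many member UMIs and cells with few, and T-ALL#2 a graded one. The member-rich cells were also the deeper cells in every library, with a median of 13868 UMIs in WT against 4524 in the others, 17964 against 4933 in preleukemic thymus, 22386 against 6645 in T-ALL#1 and 26327 against 16349.5 in T-ALL#2. Droplets with more than 1 cell were not removed, and their part was not tested. Without the deepest 5% of cells the shares were 7.65%, 4.08%, 14.9% and 8.53%, in the same order of libraries, and the preleukemic level was still lower than WT, by a log2 ratio of -0.86.

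A stricter reading used 12 members that peak in G2 and mitosis (*Ccnb1*, *Cdc20*, *Plk1*, *Aurka*, *Cenpa*, *Cenpe*, *Cenpf*, *Kif20a*, *Hmmr*, *Dlgap5*, *Ube2c* and *Tpx2*). Cells with UMIs of at least 3 of them were 8.33% in WT, 4.48% in preleukemic thymus, 12.4% for T-ALL#1 and 7.04% for T-ALL#2, in the same order as the shares by all members. As a background of cells that should not divide, cells with UMIs of both *Klf2* and *S1pr1*, markers of mature thymocytes about to leave the thymus, were read in the same way. Of these, 19 of 411 in WT (4.62%, 2.81% to 7.13%) had 10 member UMIs, 1 of 116 in preleukemic thymus (0.862%, 0.0218% to 4.71%), 3 of 79 in T-ALL#1 (3.80%, 0.790% to 10.7%) and 0 of 42 in T-ALL#2 (upper bound 8.41%). Their median depth was 6741.5, 5093, 7653 and 12784 UMIs. In each of the 4 libraries the share over all cells lay above the upper bound of this background.

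Where in development the members were read was taken from detection of *Cd4*, *Cd8a* and *Il2ra* (CD25) at 1 UMI or more. Detection misses cells with few transcripts, so a minus sign does not show that the protein is absent. The pattern a cell shows also depends on its depth, and on levels that differed between libraries. In thinned cells that were not member-rich, *Cd4* was at 479 CPM in WT, 12.7 in preleukemic thymus, 179 for T-ALL#1 and 26.2 for T-ALL#2. *Cd8a* was at 1000, 207, 612 and 167 CPM in the same order. A pattern can therefore hold different stages in different libraries. Thinning to 2000 UMIs equalises depth but moves cells into patterns with fewer transcripts. Without thinning the deeper cells show more of the 3 transcripts. The thinned level also gives each cell the same weight, whereas the other level sums UMIs over cells, so deeper cells count more. Over all WT cells the summed level was 39.7 per 10000 and the mean over cells 17.0. Both readings are given, and the pattern with the highest level depended on which was used.

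Thinned, the WT level was highest in *Cd4*- *Cd8a*+ *Il2ra*- cells, the pattern of immature single-positive cells and of mature CD8 cells alike, at 38.2 member UMIs per 10000 (37.2 to 39.2, 737 cells), against 20.1 in *Cd4*+ *Cd8a*+ *Il2ra*- (double-positive) cells (1026 cells). Without thinning the WT order was the reverse, at 22.7 in the first (738 cells) and 67.1 in the second (2062 cells). Of the WT patterns with at least 50 cells, 1 of these 2 was the highest in each reading.

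The *Cd4*- *Cd8a*+ *Il2ra*- pattern had 38.2 per 10000 in WT, 17.2 in preleukemic thymus (858 cells), 33.8 for T-ALL#1 (1127 cells) and 14.3 for T-ALL#2 (258 cells) after thinning. Not thinned, it had 22.7, 27.8, 39.3 and 18.0, so preleukemic was below WT in the first reading and above it in the second. T-ALL#1 was above preleukemic and T-ALL#2 below it in both.

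Cells with none of the 3 transcripts had 14.0 member UMIs per 10000 in WT, 9.10 in preleukemic thymus, 32.0 for T-ALL#1 and 17.1 for T-ALL#2 after thinning, and 8.70, 13.5, 30.3 and 14.9 without it. T-ALL#1 was the highest of the 4 libraries in both readings, and the order of WT and preleukemic turned. After thinning they made up 77.1% of preleukemic cells with 66.5% of its member UMIs, against 27.0% of cells and 18.5% of member UMIs in WT. Without thinning they made up 63.1% of preleukemic cells with 27910 of its 85794 member UMIs. In WT they were then 9.12% of cells with 1677 of 95455 member UMIs, so these shares depend on the reading.

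In *Cd4*- *Cd8a*- *Il2ra*+ cells, the pattern of DN2 and DN3 progenitors, the thinned level was 6.98 in WT (58 cells), 8.94 in preleukemic thymus (221 cells), 26.1 for T-ALL#1 (530 cells) and 14.9 for T-ALL#2 (388 cells). Not thinned, it was 13.9, 18.9, 38.7 and 21.2, in the same order of libraries. Member-rich cells were 3.45% of these cells in WT (2 of 58, 0.420% to 11.9%), 4.98% in preleukemic thymus (2.51% to 8.73%), 18.9% for T-ALL#1 (15.6% to 22.5%) and 8.25% for T-ALL#2 (5.71% to 11.4%). By this share T-ALL#1 stood above the intervals of the other 3 libraries, and the intervals of WT, preleukemic thymus and T-ALL#2 overlapped.

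Double-positive cells had 20.1 member UMIs per 10000 in WT (1026 cells), 13.6 in preleukemic thymus (76 cells), 15.7 for T-ALL#1 (398 cells) and 3.28 for T-ALL#2 (29 cells) after thinning, and 67.1, 66.4, 48.2 and 14.1 without it. WT was the highest and T-ALL#2 the lowest in both, and WT and preleukemic thymus were close in the second. In T-ALL#1, *Cd4*+ *Cd8a*+ *Il2ra*+ cells had 6.68 per 10000 in 584 thinned cells and 41.0 in 1891 cells not thinned, so the level of this pattern cannot be read apart from depth. *Cd4*- *Cd8a*+ *Il2ra*+ cells had 13.6 in T-ALL#1 (841 cells) and 10.7 in T-ALL#2 (132 cells) after thinning, and 45.4 and 21.8 without it. Not thinned, this pattern held the most member UMIs of any in both leukemias, 87825 of 286980 in T-ALL#1 and 33581 of 73777 in T-ALL#2.

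**Figure D4:**
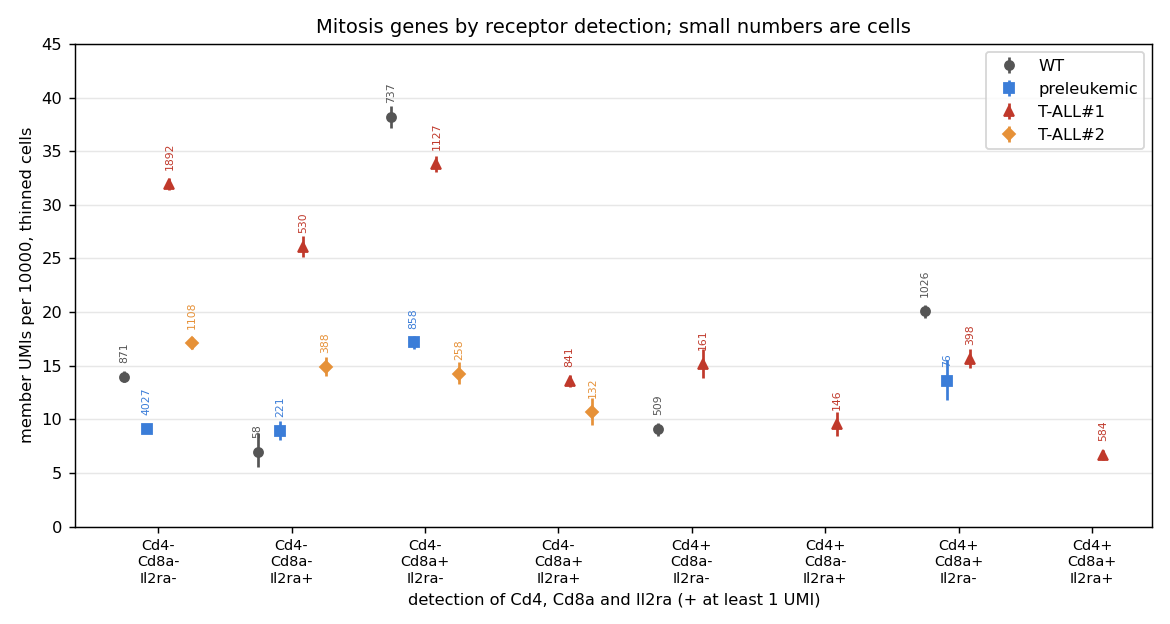
Member UMIs per 10000 in cells thinned to 2000 UMIs, by detection of *Cd4*, *Cd8a* and *Il2ra* in the 4 libraries, with exact Poisson 95% intervals and the number of cells beside each point. Combinations of library and pattern with under 50 cells are left out. WT peaks at 38.2 in *Cd4*- *Cd8a*+ *Il2ra*- cells, a place it loses without thinning. T-ALL#1 is at 26.1 to 33.8 in 3 patterns without *Cd4*, and at 13.6 in *Cd4*- *Cd8a*+ *Il2ra*+ cells.

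The levels were also set on 1 mixture of patterns. With the WT share of each of the 8 patterns given to every library, the thinned level per 10000 was 20.4 in WT, 14.6 in preleukemic thymus, 24.3 for T-ALL#1 and 10.9 for T-ALL#2, where the values with their own shares were 20.4, 10.5, 24.3 and 15.4. The preleukemic level came nearer to WT and stayed below it, and the T-ALL#2 level moved from above to below the preleukemic one. The share of member-rich cells at WT proportions was 11.1%, 7.86%, 16.8% and 6.88%. The WT proportions rest on patterns that held under 50 cells in some libraries, and the smallest held 1, and on patterns read after thinning. As *Cd4* and *Cd8a* levels differed between libraries, the same mixture of patterns need not be the same mixture of stages.

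Cells with a *Top2a* UMI were then compared, so that the other 42 members were read beside 1 transcript of the list. After thinning they were 486 WT cells (15.1%), 587 preleukemic cells (11.2%), 1459 T-ALL#1 cells (25.7%) and 417 T-ALL#2 cells (21.1%). In *Klf2*+ *S1pr1*+ cells the shares with *Top2a* were 8.03%, 3.45%, 11.4% and 7.14%, and the part of transcripts free in the droplets was not tested. The other 42 members had 99.1 UMIs per 10000 in the *Top2a* cells of WT (97.1 to 101), 49.6 in preleukemic thymus (48.4 to 50.9), 61.3 for T-ALL#1 (60.4 to 62.2) and 35.9 for T-ALL#2 (34.6 to 37.2). WT was thus the highest, also against T-ALL#1, whose whole library was near the WT level per UMI. *Top2a* itself followed the same order, at 2.98 UMIs a cell in WT, 1.94 in preleukemic thymus, 2.20 for T-ALL#1 and 1.63 for T-ALL#2. The *Top2a* cells of the libraries were therefore not matched for *Top2a*. Of these cells 66.9% were member-rich cells in WT, 40.7% in preleukemic thymus, 57.7% for T-ALL#1 and 36.0% for T-ALL#2, and 49.0%, 26.2%, 36.9% and 21.6% had 3 of the 12 G2 and mitosis members.

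The 44 DNA replication genes differed less in the same cells, at 80.6 UMIs per 10000 in WT, 61.2 in preleukemic thymus, 74.9 for T-ALL#1 and 61.4 for T-ALL#2. The ratio of the 42 members to the replication genes was 1.23 in WT, 0.811 in preleukemic thymus, 0.819 for T-ALL#1 and 0.584 for T-ALL#2. Within the 42 members the late genes took a like share in each library, 31.0%, 29.7%, 29.3% and 27.7%. In cells with at least 2 *Top2a* UMIs, which were 305, 234, 795 and 163, the other members had 134, 88.1, 83.2 and 50.2 UMIs per 10000, so that WT was again the highest and T-ALL#2 the lowest, with the preleukemic library above T-ALL#1.

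Within *Top2a* cells, 39 of the 42 members were called lower in preleukemic than in WT (background 6.32%), 28 in T-ALL#1 than in WT (16.6%) and 40 in T-ALL#2 than in WT (22.4%). None of the 42 was called higher in any of these 3, for which no share of all genes called higher is given here. The 28 were lower in both leukemias and 0 members were higher in both, where 13.1% of all genes were lower in both and 4.55% higher. These comparisons share the WT cells. All 8 centromere and kinetochore members, 6 of 7 cyclins and kinases and 6 of 8 kinesins were lower in both. Of the 4 passenger complex subunits and of the 2 other genes of chromosome structure 0 were, although all 4 subunits were lower in T-ALL#2 and 3 of 4 in preleukemic thymus. In T-ALL#1 *Aurkb* was at 107 CPM of *Top2a* cells against 109 in WT, *Incenp* at 122 against 166, *Birc5* at 400 against 538 and *Cdca8* at 273 against 329, and T-ALL#2 had 64.7, 79.1, 246 and 195 CPM. With the TMM factors of the whole libraries the count lower in both leukemias was 11 of 42, so its size depends on the scale. The share of all genes lower in both was not computed with these factors, so the 11 cannot be set beside a background.

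**Figure D5:**
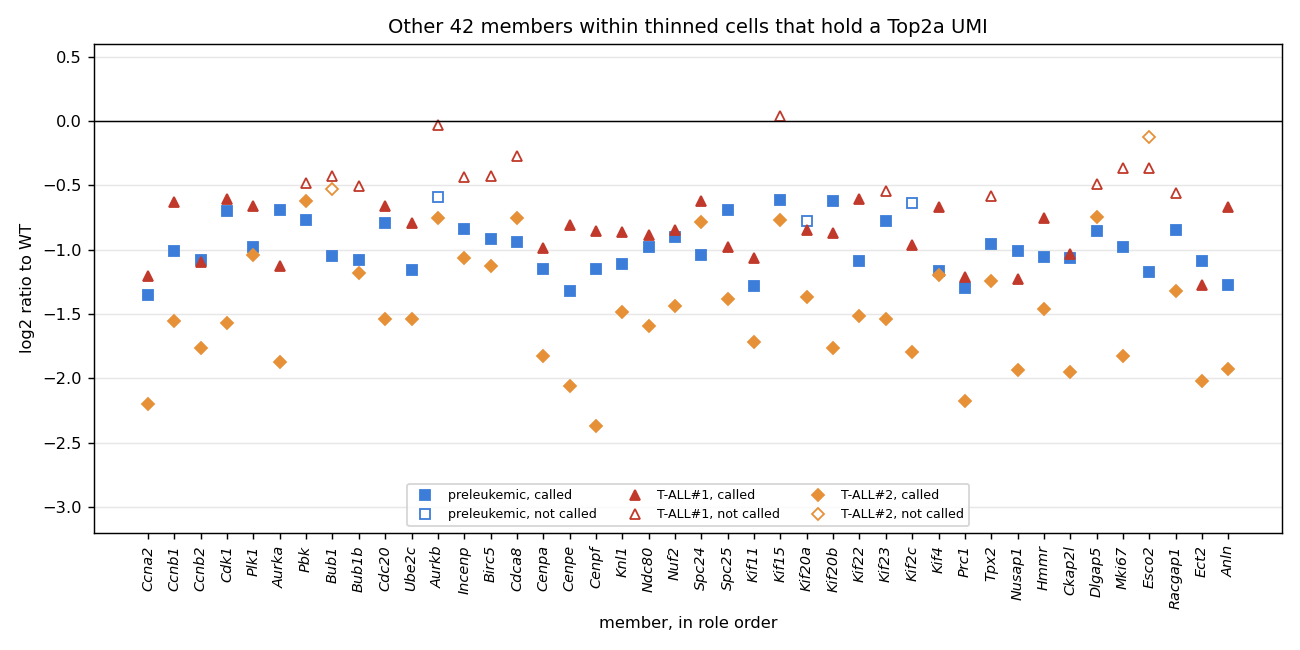
Log2 ratio to WT of the other 42 members within thinned cells that hold a *Top2a* UMI, for the preleukemic library and both leukemias, in role order. Filled symbols reach the call and open symbols do not. Apart from *Kif15* in T-ALL#1, every point lies below 0, and T-ALL#2 lies lowest for most members, with *Esco2* and *Bub1* as its open symbols.

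The members farthest from WT in *Top2a* cells were *Cenpf* in T-ALL#2 (507 CPM in WT and 98.3 in T-ALL#2, log2 ratio -2.37), *Ect2* in T-ALL#1 (107 and 44.2 CPM, -1.28) and *Ccna2* in the preleukemic library (336 and 132 CPM, -1.35). The nearest were *Esco2* in T-ALL#2 (150 and 138 CPM, -0.12), *Kif15* in T-ALL#1 (137 and 141 CPM, 0.04) and *Aurkb* in the preleukemic library (109 and 72.4 CPM, -0.59). *Mki67* was at 966 CPM in WT, 491 in preleukemic thymus, 752 for T-ALL#1 and 272 for T-ALL#2.

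Compared with preleukemic *Top2a* cells, 5 members were called higher in T-ALL#1 (*Bub1*, *Cdca8*, *Kif15*, *Mki67* and *Esco2*, background 6.41%), where 39 of 43 were higher over all cells. In T-ALL#2 1 was higher (*Esco2*, background 5.27%) and 16 were lower (19.4%). Between the leukemias, 28 members were lower in T-ALL#2 than in T-ALL#1 (11.4%). The share of cells with *Top2a* was 25.7% in T-ALL#1 against 11.2% in preleukemic thymus, and the median log2 ratio of the other members within those cells was 0.29, where it was 0.93 over all cells.

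Further genes of the pathway were read from lists that share no gene with the 43. Of 67 other mitotic genes, 1 was higher and 35 lower in preleukemic than in WT, 43 higher and 2 lower in T-ALL#1 than in preleukemic, and 4 higher and 11 lower in T-ALL#2 than in preleukemic. All-gene shares were 8.4% higher and 10.1% lower, 11.6% and 24.6%, and 9.09% and 45.2% in these comparisons, so both T-ALL#2 counts were below the background. The 1 higher gene was *Smc4*, a core subunit of condensin, at 678 CPM in WT, 1318 in preleukemic thymus, 802 for T-ALL#1 and 636 for T-ALL#2. *Smc4* was thus highest in preleukemic thymus and lowest in T-ALL#2, both with low members. *Psrc1*, which binds spindle microtubules, was at 4.26 CPM in preleukemic thymus, 26.9 for T-ALL#1 and 21.1 for T-ALL#2, and *Pimreg* at 9.33, 31.0 and 18.5 CPM, the largest ratios to preleukemic in T-ALL#2 on that list. Among those called, *Depdc1a*, *Kifc1* and *Kif14* were lower in preleukemic than in WT thymus, at ratios of 0.449, 0.456 and 0.458.

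The 44 DNA replication genes gave other counts. In preleukemic against WT 0 were higher and 4 lower, with a median log2 ratio of -0.09, beside 41 of 43 members lower. The 4 were near the share of all genes lower, 10.1%, and 8.4% of all genes were higher. In T-ALL#1 against preleukemic 26 were higher and 0 lower, and in T-ALL#2 10 were higher and 0 lower, with medians of 0.69 and 0.31. Of all genes, 11.6% were higher and 24.6% lower in T-ALL#1, and 9.09% and 45.2% in T-ALL#2. *Tyms*, thymidylate synthase, was at 164 CPM in WT, 104 in preleukemic thymus, 225 for T-ALL#1 and 197 for T-ALL#2, and *Rrm2*, a subunit of ribonucleotide reductase, at 344 and 169 CPM in WT and the preleukemic library.

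Of 23 regulators of the module, 2 were higher and 5 lower in preleukemic than in WT, 5 and 5 in T-ALL#1 than in preleukemic, and 1 and 8 in T-ALL#2. Against the all-gene shares above, the 5 lower in T-ALL#1 were near the background of 24.6% and the 8 lower in T-ALL#2 under that of 45.2%. *Foxm1*, the G2 transcription factor of mitotic genes, was at 23.2 CPM in WT, 14.1 in preleukemic thymus, 22.5 for T-ALL#1 and 12.9 for T-ALL#2, an order like that of the members. *Mybl2* (B-Myb), the activating partner of MuvB, was at 19.5, 14.5, 32.8 and 27.6 CPM and was called higher than preleukemic in both leukemias. *Rbl2* (p130), the pocket protein of the MuvB complex of resting cells, was at 70.1 CPM in WT, 115 in preleukemic thymus, 37.5 for T-ALL#1 and 37.6 for T-ALL#2. *E2f1* was at 21.6, 19.8, 35.8 and 24.1 CPM, and *E2f2* was called lower in preleukemic thymus, at 118 CPM in WT and 30.3 CPM in preleukemic thymus. *Nfya*, the subunit of NF-Y that binds CCAAT, was at 41.8 CPM in preleukemic thymus, 27.4 for T-ALL#1 and 11.9 for T-ALL#2.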

How the data were processed

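Droplet-based 3′ libraries of sorted viable thymocytes were analysed as 4 libraries. The deposited values are counts of UMIs per gene and barcode, which per the file headers the authors made with Cell Ranger 3.0.2 (WT, preleukemic, T-ALL#1) or 4 (T-ALL#2), against mm10 per the submitters' processing notes. The labels name more than 1 chemistry version without assigning them to libraries, so chemistry cannot be told apart from library. In T-ALL#2 a barcode was a cell if its UMIs reached 1/10 of percentile 99 over the 10000 deepest barcodes, and empty droplets held 1 to 100 UMIs. The study's upper limit on genes per cell was used as an alternative only. Doublets were not called.

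CPM values are UMIs summed over kept cells, per 1000000. Thinning drew 2000 UMIs from each cell with a fixed seed. Ratios with 0 UMIs used a floor of 3 UMIs. Intervals (exact Poisson or Clopper-Pearson, 95%) cover counting error only, and no test between groups was made because WT and preleukemic thymus are 1 library each. Python 3.11.15 with numpy 2.4.6, scipy 1.17.1 and pandas 2.3.3 was used, and TMM and size factors came from edgeR 4.0.16 and DESeq2 1.42.0 in R 4.3.3. The call rule and the thinning were tested on simulated data.

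The members, lists and tests were chosen with earlier results of these data known. Members given with values in every library were, in each role group, that with the highest CPM and those with the largest or smallest ratio in a comparison, beside others chosen after their values were seen. Of other lists, the 3 most extreme genes in a direction could be named, with *Foxm1*, *Mybl2* and *E2f1*. Of the other lists, *E2f8* is held by both the replication genes and the regulators. Cell weighting, scaling, filters, thinning depth and limits were varied.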

Additional observations from a re-analysis of the deposited data

Results flagged for a closer look

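The members also had a signal outside the cells compared above. In T-ALL#2, where every barcode was deposited, 1187985 droplets of 1 to 100 UMIs held 1814932 UMIs, and the 43 members together were at 1645 CPM in them (1587 to 1705), against 2036 CPM in the kept cells. The other libraries hold called cells alone, so no such value was read for them. The source of these UMIs was not tested.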

How the results depend on the processing

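The log2 ratio of the summed members in preleukemic over WT thymus, -0.92, stayed below 0 in every alternative tried. It was -0.74 with cells weighted equally, -0.87 with TMM factors, -0.88 with DESeq2 size factors, -0.86 with the upper limit on genes per cell, -0.86 without the deepest 5% of cells and -1.06 with a mitochondrial share under 5%. The mean log2 ratio of the leukemias to preleukemic thymus rests on T-ALL#1. Without T-ALL#1 it reversed to -0.0448 and without T-ALL#2 0.95. With both it was 0.91 with cells weighted equally, 0.83 with TMM factors, 0.81 with DESeq2 size factors and 0.76 without the deepest 5% of cells, against 0.45. The 3 members higher in both leukemias became 18 with cells weighted equally, 13 with TMM factors, 13 with DESeq2 size factors, 8 without the deepest 5% of cells and 1 at a ratio of 2, and 3 to 39 with 1 leukemia left out. The 41 members lower in preleukemic thymus became 15 at a ratio of 2. The 28 members lower than WT in both leukemias within *Top2a* cells became 17 when thinned to 1000 UMIs, 8 at a ratio of 2 and 11 with TMM factors, and 28 to 40 with 1 leukemia left out. For these other settings the share of all genes called in both leukemias was not computed. The use of whole-library TMM factors within *Top2a* cells, and cells with at least 2 *Top2a* UMIs, were chosen after seeing the data.

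Shares of member-rich cells are given in the order WT, preleukemic, T-ALL#1 and T-ALL#2. They were 7.65%, 4.08%, 14.9% and 8.53% without the deepest 5% of cells, 13.8%, 9.20%, 25.1% and 21.6% at 5 UMIs, 7.84%, 2.81%, 8.35% and 1.97% at 20 UMIs, and 8.33%, 4.48%, 12.4% and 7.04% by the 12 late members. With a mitochondrial share under 5% they were 13.4% in WT, 20.4% in T-ALL#1 and 11.8% in T-ALL#2. At other depths the limit was scaled to stay at 50 member UMIs per 10000. Thinned to 1000 UMIs they were 9.36% in WT and 11.4% in T-ALL#2, and thinned to 3000 UMIs 13.7%, 6.68% and 18.5% in the first 3. Not thinned they were 8.51% in WT, 5.06% in the preleukemic library and 8.25% in T-ALL#2. The order of WT and T-ALL#2 therefore depends on the setting. The causes of these shifts were not tested. No paired analysis was possible because WT and preleukemic thymus are 1 library each. Thinning left out 23.5% of WT cells for want of depth, and nothing here measures the spread between mice.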

Other observations

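*Tal1*, one of the transgenes, was lower in member-rich cells than in the other thinned cells of each transgenic library. It was at 295 against 506 CPM in the preleukemic library, at 39.5 against 91.7 CPM in T-ALL#1 and at 221 against 294 CPM in T-ALL#2. The exact Poisson 95% intervals did not overlap in any of these 3 pairs. *Cdkn1b* (p27), a Cdk inhibitor of resting cells, was lower in member-rich cells of 3 libraries, at 175 against 239 CPM in WT, 103 against 198 in preleukemic thymus and 88.2 against 186 for T-ALL#1. In T-ALL#2 it rested on 24 UMIs, at 60.9 CPM (39.03 to 90.6) against 85.2 (75.9 to 95.4), and the intervals overlapped. *Cdkn2d*, an Ink4 inhibitor, was higher in member-rich cells of WT (342 against 173 CPM) and T-ALL#1 (165 against 98.5), whereas the intervals overlapped in preleukemic thymus (172 against 157) and in T-ALL#2 (68.5 against 46.96). Intervals cover counting error only. Cells are not replicates, and these 3 genes were chosen after their values were seen.

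The cells too shallow to be thinned had few member UMIs. They held 5.67 per 10000 in WT, 4.49 in the preleukemic library and 13.6 in T-ALL#1, and 991 WT cells were left out. The mean over cells of member UMIs per 10000 was 17.0 in WT before they were left out and 20.4 after thinning, against 10.2 and 10.5 in the preleukemic library and 24.1 and 24.3 in T-ALL#1.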
